A study of Homo sapiens with 6 samples.

Results

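The poly(ADP-ribose) polymerase (PARP) family genes described here are PARP1, PARP2, PARP3, PARP4, PARP9, PARP10, PARP12 and PARP14, together with DTX3L, the ubiquitin ligase that partners PARP9. These 9 genes were chosen by name, for their membership of the family or their tie to PARP9, out of 20045 genes named on the array. Earlier results of these data were known at the choice, and other family members are described further below. The 9 members were read at 12 probes, all of which passed the detection filter. The members were placed by role into 3 DNA repair genes (PARP1, PARP2, PARP3), 1 vault gene (PARP4) and 5 interferon-linked genes (PARP9, DTX3L, PARP10, PARP12, PARP14).

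Transcripts of SK-Mel-147, a human melanoma cell line, were read with Illumina HumanHT-12 v4 BeadChips at 48 h from transfection. The 6 arrays formed 3 groups of 2: cells given a miR-638 mimic (miR-638), cells given a miR-638 inhibitor (antagomiR-638), and control cells (mock). The sources name the control differently: mock-transfected in the array titles, a non-targeting control in the design text and a control antagomiR in a legend. All samples came from this 1 line, and nothing states whether the 2 replicates of a group were separate cultures, so the p-values measure only the spread between these arrays. Each RNA came from a whole culture, so a change in the share of cells expressing a gene and a change in RNA per cell cannot be told apart.

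PARP enzymes transfer ADP-ribose from NAD to proteins or nucleic acids. PARP1, PARP2 and PARP3 are switched on by DNA breaks, and the poly(ADP-ribose) made by PARP1 and PARP2 recruits repair factors. PARP9, PARP10, PARP12, PARP14 and DTX3L are known as interferon-stimulated genes, whose transcription is driven through the interferon-stimulated response element in their promoters.

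The sequence of the transfected microRNA is given because both treatments were built on it. In RefSeq (GRCh38.p14) it lies at chr19:10718419-10718443 on the plus strand, and the capitals mark its seed, bases 2 to 8.
miR-638: aGGGAUCGcgggcggguggcggccu

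Promoters are shown to set the members, grouped by role above, beside short motifs. RefSeq windows of 300 bases, 250 before and 50 after the transcription start, were held for 7 of the 9 members; PARP4 and PARP10 had no entry. The motifs searched, on both strands, were the interferon-stimulated response element core (GAAANN followed by GAAA), a STAT site (TTCNNNGAA), and an E2F site in 2 forms (TTTCCCGC and TTTGGCGC). Interferon-linked genes are already known for the response element, so its presence in them is no independent evidence. The response element core was found in all 4 interferon-linked members with an entry and in 0 of the 3 DNA repair members. Of all 35116 windows 3.57% held it. Counted by gene, as for the members, it was held by 4.38% of all 27305 genes with a window. The same count gave 18 of 27 genes (66.7%) of a list of interferon-stimulated effectors and 0 of 6 genes of interferon signalling. The windows of the 4 interferon-linked members and of PARP3 follow, with every motif match in capitals.
DTX3L (chr3:122564088-122564387, plus strand): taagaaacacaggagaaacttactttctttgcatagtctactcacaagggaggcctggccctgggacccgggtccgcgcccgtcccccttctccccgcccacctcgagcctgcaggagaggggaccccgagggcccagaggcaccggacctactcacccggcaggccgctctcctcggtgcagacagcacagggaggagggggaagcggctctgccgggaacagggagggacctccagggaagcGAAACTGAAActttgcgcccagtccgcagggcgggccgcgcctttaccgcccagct
PARP9 second start (chr3:122564251-122564550, minus strand): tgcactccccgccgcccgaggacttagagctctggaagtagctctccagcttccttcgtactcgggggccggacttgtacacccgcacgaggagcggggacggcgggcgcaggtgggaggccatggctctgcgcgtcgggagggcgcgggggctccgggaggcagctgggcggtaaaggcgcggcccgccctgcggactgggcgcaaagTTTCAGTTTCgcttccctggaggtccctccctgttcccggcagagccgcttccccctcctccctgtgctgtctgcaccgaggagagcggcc
PARP12 (chr7:140062902-140063201, minus strand): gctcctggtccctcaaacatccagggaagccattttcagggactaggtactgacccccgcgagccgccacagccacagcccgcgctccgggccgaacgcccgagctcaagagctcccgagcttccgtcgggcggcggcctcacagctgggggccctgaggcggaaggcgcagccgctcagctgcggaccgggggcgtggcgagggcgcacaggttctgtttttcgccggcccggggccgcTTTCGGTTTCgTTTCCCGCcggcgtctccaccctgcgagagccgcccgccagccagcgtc
PARP14 (chr3:122680589-122680888, plus strand): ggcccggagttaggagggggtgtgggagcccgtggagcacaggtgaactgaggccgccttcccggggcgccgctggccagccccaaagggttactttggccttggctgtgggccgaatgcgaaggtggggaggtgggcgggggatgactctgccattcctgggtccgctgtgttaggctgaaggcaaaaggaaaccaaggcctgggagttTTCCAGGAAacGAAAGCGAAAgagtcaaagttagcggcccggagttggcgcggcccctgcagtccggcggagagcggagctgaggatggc
PARP3 (chr3:51942113-51942412, plus strand): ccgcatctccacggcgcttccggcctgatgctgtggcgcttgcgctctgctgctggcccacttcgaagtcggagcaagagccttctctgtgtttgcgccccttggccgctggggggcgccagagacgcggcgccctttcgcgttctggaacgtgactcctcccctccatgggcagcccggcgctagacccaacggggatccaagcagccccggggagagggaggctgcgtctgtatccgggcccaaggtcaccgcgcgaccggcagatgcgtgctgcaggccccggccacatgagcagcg

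DTX3L and PARP9 lie head to head on opposite strands of chromosome 3, and the windows of DTX3L and of the second PARP9 start overlapped by 137 bases. The same response element core lay in both windows and began 6 bases before the DTX3L start and 41 bases before the PARP9 start. The window of the first PARP9 start held no match. In PARP12 the core began 10 bases before the start and was followed by an E2F site, present in 1.63% of all windows. In PARP14 it began 29 bases before the start, next to a STAT site. The STAT site was also found in PARP2, and in 7.66% of all windows. The second E2F form was in no member's window, against 0.652% of all windows. No match overlapped another within a window. A match is a description of the letters and was not tied to binding by any measurement here.

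**Figure D1:**
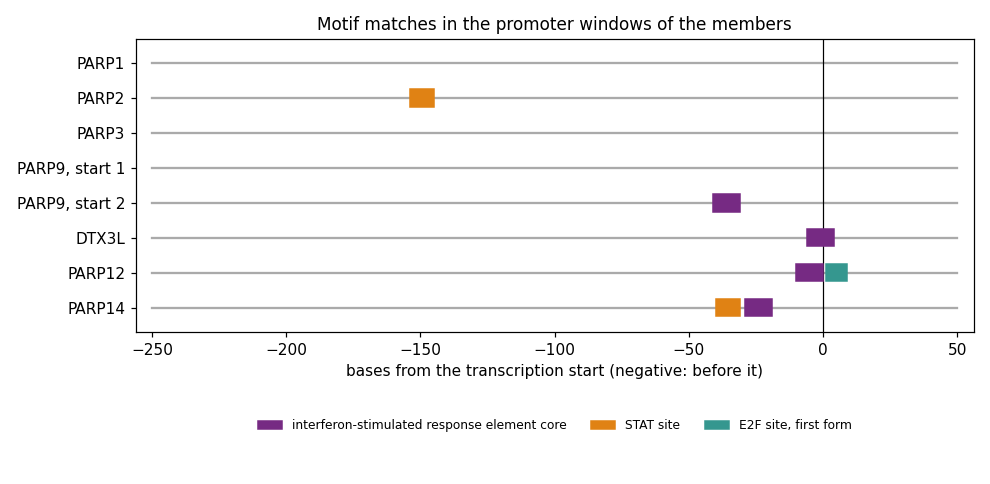
Motif matches (coloured boxes) in the promoter windows of the members, drawn against distance in bases from the transcription start. The response element core (purple) begins 6 to 41 bases before the start in DTX3L, PARP12, PARP14 and the second PARP9 start, and is missing from the PARP1, PARP2 and PARP3 windows.

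The first question was how the inhibitor altered these genes relative to mock. Among the DNA repair members, PARP3 rose and PARP1 and PARP2 did not pass the test, with values below mock. Of the interferon-linked members PARP9, PARP10 and PARP14 rose, PARP9 the most, while DTX3L and PARP12 had positive differences that did not pass. Over the 9 members 4 were called higher and 0 lower at an adjusted p of 0.01 (limma, Benjamini-Hochberg adjustment over all 20145 probes kept). Of 11501 genes tested in this comparison 5.83% were called higher and 4.78% lower.

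PARP9, a member that binds ADP-ribose through its macrodomains, had intensities of 362 and 398 on the antagomiR-638 arrays, against 99.8 and 101 on the mock arrays. The groups did not overlap and lay far apart relative to their spread. The log2 difference was 1.76 (SE 0.12, adjusted p = 5.9e-05), a 3.40-fold rise (95% confidence interval 2.83 to 4.08). Its second probe read 241 and 185 on the antagomiR-638 arrays and 53.4 and 46.0 on the mock arrays. The difference at that probe, 1.80 on the log2 scale (SE 0.16), was close to that of the first. PARP9 ranked 30 from the top of 11501 genes and was called under all 16 alternative settings.

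DTX3L, which shares promoter sequence with PARP9, had a smaller difference. It read 96.2 and 67.3 on the antagomiR-638 arrays, against 53.9 and 40.8 on the mock arrays. All antagomiR-638 values were above all mock values, but the antagomiR-638 arrays differed widely between themselves. The log2 difference was 0.62 (95% confidence interval 0.25 to 0.99, adjusted p = 0.027), and it was not called. As a fold the interval of DTX3L ran from 1.19 to 1.98, wholly below that of PARP9. Taken array by array and centred on mock, PARP9 exceeded DTX3L by 0.86 and 1.43 on the antagomiR-638 arrays, with the mock arrays at -0.16 and 0.16. DTX3L was one of the dim members, though detected on every array, and its log2 difference was 0.78 when intensities were floored at 16 with no normexp background correction.

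PARP10, an enzyme that adds single ADP-ribose units, read 372 and 345 on the antagomiR-638 arrays, against 141 and 159 on the mock arrays. The groups were clearly separated. The log2 difference was 1.17 (SE 0.12, adjusted p = 0.00032), a 2.26-fold rise, and it ranked 124 from the top. PARP14, a macrodomain enzyme known as a cofactor of STAT6, read 280 and 238 on the antagomiR-638 arrays and 122 and 142 on the mock arrays. Its log2 difference was 0.89 (SE 0.13, adjusted p = 0.0017), a 1.86-fold rise. The PARP14 call was lost without antagomiR-638 replicate 1 (adjusted p = 0.024) or without mock replicate 1 (adjusted p = 0.015).

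PARP12, a zinc finger member that adds single ADP-ribose units, gave 90.5 and 83.5 on the antagomiR-638 arrays, against 53.2 and 55.1 on the mock arrays. The values were tight within each group and did not overlap. The log2 difference of 0.55 (SE 0.12, adjusted p = 0.0128) fell just short of the threshold, and it passed at a normexp offset of 50 or when only probes detected on every array were tested. The median log2 difference of the 5 interferon-linked members was 0.89, set against 0.01 over all genes.

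PARP3, a break-activated enzyme that acts in end joining, read 1034 and 1135 on the antagomiR-638 arrays, against 571 and 611 on the mock arrays. Its second probe read 498 and 483 on the antagomiR-638 arrays and 292 and 266 on the mock arrays. Both probes were far above mock on both arrays. The log2 differences were 0.86 (SE 0.13, adjusted p = 0.0020) and 0.78 (SE 0.11, adjusted p = 0.0018). PARP3 was among the candidate miR-638 targets that the study picked on these same arrays, so its direction is not independent evidence. Its call was lost without antagomiR-638 replicate 1 (adjusted p = 0.017), antagomiR-638 replicate 2 (0.025), mock replicate 1 (0.016) or mock replicate 2 (0.011), each by limma. With intensities floored at 16 and no normexp, PARP3, PARP10 and PARP14 were not called (adjusted p = 0.029, 0.014 and 0.029), and PARP9 still was.

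The other DNA repair enzymes lay on the opposite side. PARP1, the main sensor of DNA breaks, read 1635 and 1723 on the antagomiR-638 arrays, against 2269 and 1978 on the mock arrays. Its log2 difference was -0.33 (95% confidence interval -0.61 to -0.06, adjusted p = 0.084). PARP2, its close relative, read 306 and 353 on the antagomiR-638 arrays and 441 and 370 on the mock arrays, a difference of -0.28 (adjusted p = 0.20). The second PARP2 probe gave -0.58 (SE 0.15, adjusted p = 0.028). Neither gene passed at any probe, although the arrays of the groups did not overlap. PARP4, which resides in the cytoplasmic vault particle, read 1611 and 1714 on the antagomiR-638 arrays and 1093 and 1114 on the mock arrays. Its log2 difference of 0.58 (SE 0.13, adjusted p = 0.012) also fell short of the threshold. PARP4 was called under 3 of 16 alternative settings, among them a normexp offset of 50 (adjusted p = 0.0025 by limma).

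**Figure D2:**
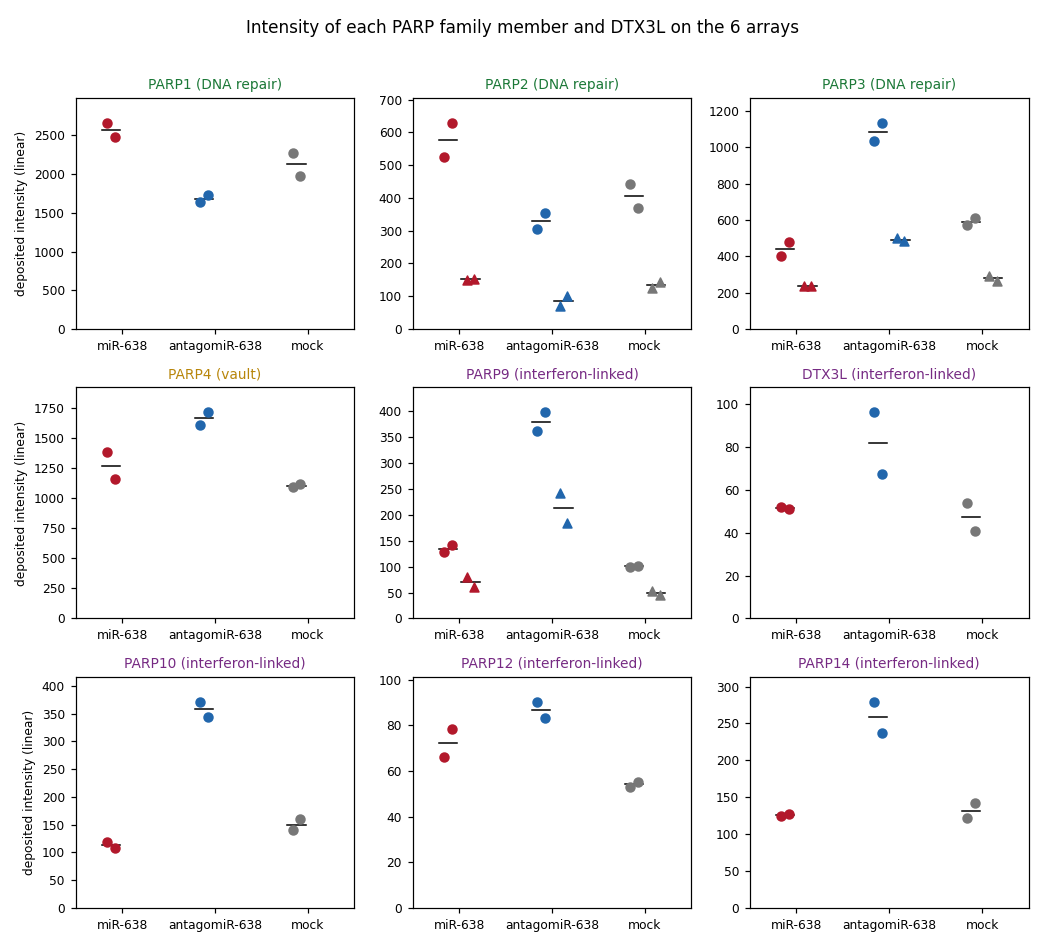
Deposited intensity (linear scale, from 0) of each member on the 6 arrays, 2 per group; circles are the brightest probe, triangles a second probe, and short black lines group means. PARP9, PARP10, PARP14 and PARP3 are highest on the antagomiR-638 arrays, while PARP1 and PARP2 are lowest there.

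The second question was what the mimic did relative to mock. None of the 9 members was called in either direction by limma at an adjusted p of 0.01, where 1.93% of genes were called higher and 1.13% lower. Before adjustment, 6 of 9 members had a p under 0.05, against 28.2% of all genes in either direction. The differences were small and mixed in sign within both roles.

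PARP2 gave 524 and 629 on the miR-638 arrays, against 441 and 370 on the mock arrays, a log2 difference of 0.49 (95% confidence interval 0.17 to 0.82, adjusted p = 0.066). PARP1 gave 2661 and 2482 on the miR-638 arrays and 2269 and 1978 on the mock arrays, a difference of 0.28 (adjusted p = 0.19). PARP3 gave 404 and 477 on the miR-638 arrays, against 571 and 611 on the mock arrays, a difference of -0.41 (95% confidence interval -0.70 to -0.13, adjusted p = 0.076). The second probes gave 151 and 153 for PARP2 on the miR-638 arrays, against 126 and 144 on the mock arrays, and 237 and 234 for PARP3 on the miR-638 arrays, against 292 and 266 on the mock arrays. So the value of PARP3 was below mock and those of PARP1 and PARP2 above it, with none passing the test. Under the inhibitor the values were 0.86, -0.33 and -0.28 for PARP3, PARP1 and PARP2, from a comparison that shares the mock arrays with this one.

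Among the interferon-linked members, PARP10 gave 118 and 108 on the miR-638 arrays, against 141 and 159 on the mock arrays, a log2 difference of -0.36 (adjusted p = 0.096). PARP9 gave 128 and 142 on the miR-638 arrays and 99.8 and 101 on the mock arrays, a difference of 0.37 (adjusted p = 0.085). The PARP9 values lay above mock under both treatments, those of PARP10 above mock under the inhibitor and below it under the mimic. PARP12 gave 66.1 and 78.5 on the miR-638 arrays, against 53.2 and 55.1 on the mock arrays, a difference of 0.33 (adjusted p = 0.13). DTX3L gave 51.9 and 51.1 on the miR-638 arrays, both between the mock values of 53.9 and 40.8, a difference of 0.10 (95% confidence interval -0.27 to 0.47). PARP14 gave 124 and 127 on the miR-638 arrays, again between the mock values of 122 and 142, a difference of -0.06 (95% confidence interval -0.35 to 0.23). For these genes no change was detectable with 2 arrays per group. The vault member PARP4 gave 1381 and 1156 on the miR-638 arrays, against 1093 and 1114 on the mock arrays, a difference of 0.19 (95% confidence interval -0.09 to 0.48). The signs of DTX3L and PARP14 turned without mock replicate 2, to -0.05 and 0.04.

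The last comparison set the mimic directly against the inhibitor. PARP1 and PARP2 were higher under miR-638, and PARP3, PARP9, PARP10 and PARP14 were lower. That made 2 members called higher, where 7.55% of genes were, and 4 called lower, where 8.28% of genes were. PARP10 had the largest difference among the members, -1.54 on the log2 scale (SE 0.12, adjusted p = 6.5e-05), with 118 and 108 on the miR-638 arrays, against 372 and 345 on the antagomiR-638 arrays. PARP9 followed at -1.40 (SE 0.12, adjusted p = 8.7e-05), PARP3 at -1.27 (SE 0.13, adjusted p = 0.00018) and PARP14 at -0.95 (SE 0.13, adjusted p = 0.00090). Without antagomiR-638 replicate 1 the PARP14 call was lost (adjusted p = 0.014).

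PARP1 differed by 0.61 (SE 0.12, adjusted p = 0.0064) between the mimic and the inhibitor, with 2661 and 2482 on the miR-638 arrays and 1635 and 1723 on the antagomiR-638 arrays. PARP2 differed by 0.77 (SE 0.14, adjusted p = 0.0045) at its brighter probe and by 0.73 (SE 0.15, adjusted p = 0.0080) at the other. With no probe filter neither PARP1 (adjusted p = 0.013) nor PARP2 (0.019) was called by limma. The calls of PARP1 and PARP2 were also lost when any 1 of the 4 arrays compared was left out. The highest adjusted p was then 0.053 for PARP1 and 0.050 for PARP2, both without antagomiR-638 replicate 1. PARP4 (-0.39, adjusted p = 0.049), DTX3L (-0.52, adjusted p = 0.045) and PARP12 (-0.23, adjusted p = 0.21) were not called. This comparison shares its arrays with the other 2, so it is no separate evidence of their directions.

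**Figure D3:**
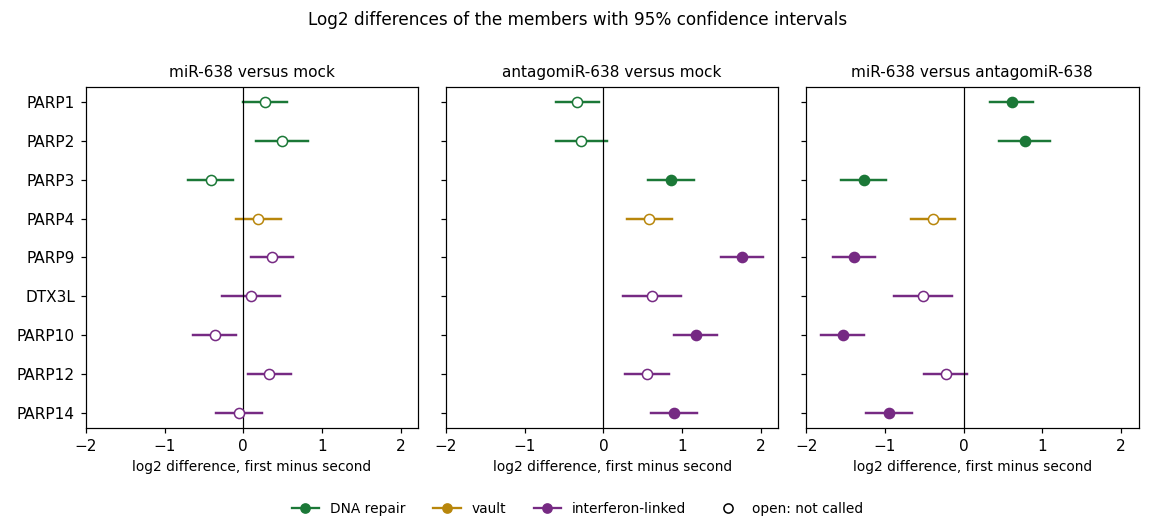
Log2 differences of the members (first group minus second) with 95% confidence intervals in the 3 comparisons; filled circles were called at an adjusted p of 0.01 and open circles were not. In the antagomiR-638 versus mock panel PARP9 stands at 1.76 and PARP1 at -0.33, and no member is filled in the miR-638 versus mock panel.

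The members were then set beside other genes of the same systems, listed by name. Of the other PARP family members 7 of 9 were kept, and 0 were called under either treatment relative to mock. ZC3HAV1, the antiviral zinc finger protein also called PARP13, averaged 171 under miR-638, against 409 under antagomiR-638, a log2 difference of -1.19 (adjusted p = 0.00019). The other 2 ZC3HAV1 probes kept gave -0.27 and -0.23 and were not called. Among 3 genes of ADP-ribose removal that were kept, OARD1, which releases the last ADP-ribose unit from proteins, rose under miR-638 by 0.82 on the log2 scale (adjusted p = 0.0043). PARG, which cuts ADP-ribose chains, had a difference of 0.05 there. NADSYN1, an enzyme of NAD synthesis, was the single call among 6 genes of NAD supply, with a log2 difference of 0.89 (adjusted p = 0.0024) under antagomiR-638 relative to mock.

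The repair genes called under antagomiR-638 relative to mock were lower in single-strand break and base excision repair, and higher only for LIG4 of end joining. Of 10 kept genes of single-strand break and base excision repair, 0 were called higher and 2 lower under antagomiR-638 relative to mock, with a median log2 difference of -0.22, where 4.78% of all genes were called lower. Those 2 were FEN1, the flap endonuclease, at -1.02 (adjusted p = 0.00057), and LIG1, the replicative DNA ligase, at -0.68 (adjusted p = 0.0035). Both also serve DNA replication. Of 6 genes of the replication helicase, MCM2 to MCM7, all 6 fell under antagomiR-638 at their brightest probes, with a median of -0.95, led by MCM5 at -1.31. The other kept probes of MCM3 and MCM4 were also called lower, but that of MCM7 gave -0.46 and was not called. Of 7 kept end joining genes LIG4 alone was called, at 0.65 (adjusted p = 0.0042), but its second probe gave -0.09. Under miR-638 relative to mock, 0 genes of these 3 lists were called.

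Calls were many among interferon genes. Of 33 interferon-stimulated effectors 28 rose and 0 fell under antagomiR-638 relative to mock, with a median log2 difference of 1.53, against 0.89 for the interferon-linked members. Over all 11501 genes 5.83% were called higher and 4.78% lower in that comparison. CMPK2, BST2 and OASL passed the detection filter only through the antagomiR-638 arrays, so they could hardly have been counted as falling. CMPK2 and BST2 were among the 28, and all of these genes entered the median. IFIT1, which binds foreign RNA, averaged 1342 on the antagomiR-638 arrays, against 53.4 on the mock arrays, a difference of 4.30, with 0.77 at its other probe. Further probes of UBE2L6 (0.27), OAS3 (0.83) and IFIT3 (0.93) were not called, though another IFIT3 probe was. The further probes of IFI6, IFI44L, IFIT1, OAS1, OAS2 and SP110 were called higher. Under miR-638, 4 of the 33 rose relative to mock, where 1.93% of all genes were called higher. IFI27 rose the most, by 1.42 (adjusted p = 0.0028 by limma), and the list's median was 0.17. Of 8 kept genes of interferon signalling 2 rose under antagomiR-638: IRF7, a transcription factor of the interferon response, by 2.76, and IRF9, a DNA-binding factor of the interferon response, by 1.30. Under miR-638 relative to mock IRF7 also rose, by 0.94 (adjusted p = 0.0020 by limma), the 1 call among these 8. The other IRF7 probe gave 2.18 under antagomiR-638 and 0.62 under miR-638, the latter not called. MVP, the major vault protein and a structural partner of PARP4, rose by 0.69 (adjusted p = 0.0036) under antagomiR-638, with 0.39 (adjusted p = 0.055) at its second probe. The MVP promoter window held the response element core, whose part in the rise was not tested.

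**Figure D4:**
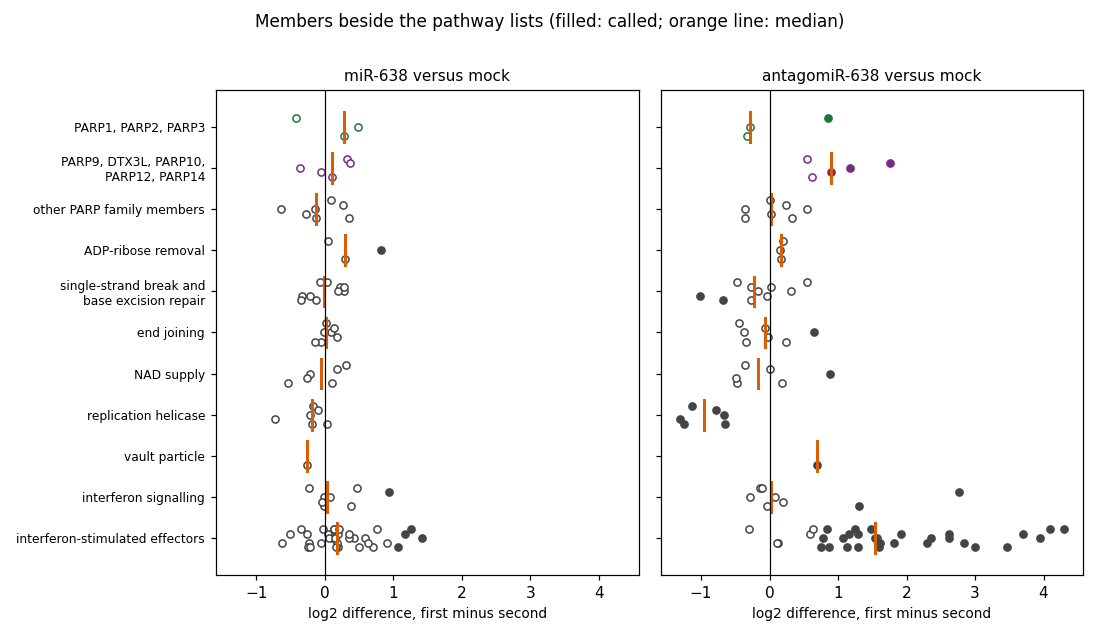
Log2 differences relative to mock of the members (top 2 rows) and of each pathway list, 1 circle per gene, filled where called, with orange lines at the medians. Under antagomiR-638 the interferon-stimulated effectors reach 4.30 and all 6 replication helicase genes lie below 0, while under miR-638 most circles are open.

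PARP9, DTX3L and PARP14 sit in 1 stretch of chromosome 3, with PARP15, which is no member and was not kept, between DTX3L and PARP14. PARP12 and PARP10 lie on chromosomes 7 and 8. The flanking genes were KPNA1 beside PARP9 and HSPBAP1 beside PARP14. Their log2 differences under antagomiR-638 relative to mock were -0.10 (adjusted p = 0.59) for KPNA1 and 0.04 (adjusted p = 0.84) for HSPBAP1, whereas those of PARP9 and PARP14 were 1.76 and 0.89. PARP3 lies elsewhere on the same chromosome.

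Likeness of pattern was measured as the Euclidean distance over the 6 arrays between log2 values centred on mock, a description in which all points share the same arrays. Between members the closest pairs were PARP4 with PARP12 (0.40) and PARP1 with PARP2 (0.41). PARP3 was nearest to PARP10 (0.54), and lay 1.97 from PARP1 and 2.07 from PARP2. PARP9 lay 2.98 from PARP1, and its nearest member was PARP10 (1.36). Among the 11492 other genes, the most alike were PCGF6, PISD and CYB5D1 for PARP1, RHEBL1, ACOX2 and RNF111 for PARP2, and EVI5L, SAT1 and INKA1 for PARP3. For PARP4 they were MFHAS1, CEMIP2 and PBX3. For PARP9 they were KITLG, FAM200B and ITM2A, at distances of 0.17 to 0.29, and for DTX3L CEP85L, ABCA1 and MST1. For PARP10 they were ANGPTL4, PCLO and FYB1, for PARP12 LCN2, PDPK1 and SCOC, and for PARP14 HSPB8, P4HA2 and REEP2.

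Between 19794 and 20890 of 47319 probes were detected per array, and replicates correlated at 0.994 to 0.995 over the probes kept. The array holds 1 probe for the MIR638 transcript, detected on 1 of 6 arrays, and it does not measure the mature mimic. Of the melanocyte markers SOX10 was detected on every array, at 1046 to 1300, while MLANA, PMEL, TYR, TYRP1 and S100B were not. MITF was dim: its brightest probe was detected on all 6 arrays, at 15.51 to 43.96, and its other probes on 0. DCT, of the same list, had no probe. Defining markers of leukocytes, keratinocytes and endothelial cells (PTPRC, CD3E, KRT5, KRT14, PECAM1, VWF) were not kept. CD14, of the leukocyte list, was detected on all 6 arrays at 1 of 2 probes, at 8.02 to 24.3. Of 4 fibroblast markers LUM was detected on all arrays and COL1A1, COL1A2 and DCN were not kept, and the list's summed intensity ranged from 452 to 470 under miR-638, 737 to 778 under antagomiR-638 and 611 to 613 in mock. Its part in the results was not tested.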

How the data were processed

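Total RNA of SK-Mel-147 cells was hybridised by the authors to 1-colour Illumina HumanHT-12 v4 arrays. The deposited intensities were background-subtracted and, as their sorted columns differed by at most 0.349, already quantile-normalised; lumi is named in the submitters' processing notes, its version not given in the sources used here. The authors also deposited a detection p-value per probe. Intensities were corrected again here with normexp (offset 16), since 26.2% were under 0, log2-transformed and quantile-normalised. The 20145 probes kept had, in 1 group or more, a detection p under 0.05 on each array. limma 3.58.1 in R 4.3.3 fitted the 3 group means, tested on simulated data first, with calls at an adjusted p of 0.01. A gene was read at its brightest kept probe, and probe names came from the platform annotation (30112 of 47319 probes with 1 symbol). All members and probes were named. From each pathway list up to 3 genes with the largest difference in a comparison were named, and for each member the 3 nearest patterns. The members, lists and motifs were chosen with earlier results of these data known. Promoters and the microRNA came from RefSeq tables (GRCh38.p14), searched with Python 3.11.15. The number of arrays, 2 per group, limits the precision. Alternatives were another background correction, table, filter, threshold or probe rule, a replicate block and each array left out.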

Additional observations from a re-analysis of the deposited data

How the results depend on the processing

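Each of the 27 member differences was recomputed under 16 alternatives. The sign turned in 2 cases, both without mock replicate 2 in the miR-638 versus mock comparison: DTX3L ranged from -0.051 to 0.2499 and PARP14 from -0.154 to 0.038 when an array was left out. For antagomiR-638 versus mock, 4 members were called, against 1 with no normexp and intensities floored at 16, 6 at a normexp offset of 50, and 7 at an adjusted p of 0.05. For miR-638 versus antagomiR-638, 6 members were called, against 2 with the floor, 4 with no probe filter (PARP1 and PARP2 lost) and 8 at an adjusted p of 0.05. Leaving out 1 array gave 2 to 4 calls for antagomiR-638 versus mock, 3 to 6 for miR-638 versus antagomiR-638, and 0 throughout for miR-638 versus mock, where no alternative gave a call. The lowest counts came without antagomiR-638 replicate 1 (2 and 3) and, for antagomiR-638 versus mock, also without mock replicate 1 (2). The cause was not tested. Replicate numbers did not pair the samples: deviations of same-numbered arrays correlated at -0.059, -0.069 and -0.054. With a replicate block the counts were 0, 4 and 5, PARP1 being lost (adjusted p = 0.012). PARP9 was called under all alternatives in both comparisons with antagomiR-638. DTX3L, PARP12 and the second PARP9 probe were dim on the mock arrays (40.8 to 55.1), though detected on every array.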
